A study of Mus musculus with 12 samples.

Results

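The mesenchymal transcription factors and identity genes comprised 10 genes, namely the transcription factors Snai1, Snai2, Twist1, Twist2, Zeb1, Zeb2 and Prrx1 and the adhesion, cytoskeletal and surface genes Cdh2, Vim and Thy1. They were found by symbol through the Ensembl identifiers of the count table, which held 55573 genes, and all 10 were among the 19174 genes with enough counts to be tested. RNA was sequenced from primary mouse embryonic fibroblasts (MEFs), connective tissue cells of C57BL/6 embryos at embryonic day E13.5, engineered so that doxycycline switches on Oct4, Sox2, Klf4 and Myc (OSKM), the factors that turn fibroblasts into stem cells. The groups were uninduced cells (MEF), uninduced cells with 2 µM vitamin B12 (MEF+B12), cells given doxycycline at 1 µg/ml per the labels (OSKM), and doxycycline with B12 (OSKM+B12), all kept for 72 h in medium for induced pluripotent stem (iPS) cells. Each group had 3 libraries, from clones 1, 2 and 3, and each clone is the culture of 1 embryo. Uninduced cells received no doxycycline, so effects of the drug and of the factors cannot be told apart.

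Epithelial and mesenchymal cells differ in how they attach to each other. Factors of the Snail, Zeb and Twist families bind short E-box sequences in DNA and, in an epithelial-to-mesenchymal transition, repress E-cadherin and other junction genes while N-cadherin and vimentin are made. Reprogramming of fibroblasts to iPS cells runs the other way: a mesenchymal-to-epithelial transition is an early step, and loss of the surface protein Thy1 is commonly used to follow cells that leave the fibroblast state. The comparisons asked whether these genes had changed by 72 h of induction, whether B12 changed them, and whether embryos differed.

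The promoters were examined because Snail and Zeb factors repress genes through the E-box CAGGTG, and Snai1 is known to bind its own promoter. RefSeq windows from 250 bases before to 50 after the start (GRCm38.p6) were matched for 6 of the 10 genes, Snai1, Twist1, Twist2, Zeb2, Prrx1 and Vim. CAGGTG was searched on both strands, as was the general form CANNTG, of which CAGGTG is an instance. CAGGTG was present in 20.21% and CANNTG in 72.31% of all 32851 promoter windows of 300 bases. Snai1 held 1 match, written CACCTG on the strand of the gene, whose first base lies 126 bases before the start. The windows of Twist1, Twist2, Prrx1 and Vim and the 4 windows of Zeb2 held 0 matches to either word. The Vim window, from 13574061 to 13574360, lies inside the gene as annotated by GENCODE, which starts at 13573927. Bases before that start were therefore not searched. The Zeb2 windows other than that from 45117393 to 45117692 also lie inside the GENCODE gene. The bases before the start, cut where GENCODE and RefSeq starts differ so as to end before both, are shown for Snai1 (chr2:167537945-167538194, plus strand, 250 bases), as the window with the E-box, in capitals, and for Prrx1 (chr1:163313711-163313900, minus strand, 190 of the 250 bases before the RefSeq start), as the gene that differed with B12 below.
Snai1: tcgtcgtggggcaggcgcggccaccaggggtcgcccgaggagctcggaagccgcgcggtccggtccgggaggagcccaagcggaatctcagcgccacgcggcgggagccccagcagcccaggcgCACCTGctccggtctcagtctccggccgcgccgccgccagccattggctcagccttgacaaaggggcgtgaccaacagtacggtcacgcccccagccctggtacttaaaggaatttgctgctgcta
Prrx1: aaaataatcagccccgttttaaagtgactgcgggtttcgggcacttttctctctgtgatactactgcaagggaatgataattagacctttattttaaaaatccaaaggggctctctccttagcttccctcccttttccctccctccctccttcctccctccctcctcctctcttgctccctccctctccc

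The libraries held 56971244 to 79236795 counted read pairs, and the member with the fewest counts, Snai2, had 1523 to 2831 per library. Levels are given as CPM (counts per 1e6 counted pairs, after TMM correction of the totals) and compared between genes as RPKM (CPM per kilobase of exon). The induced gene Pou5f1, which encodes Oct4, spanned 18.5 to 20.7 CPM in clones 1 and 2 after induction but only 2.33 to 2.86 CPM in clone 3, and did not exceed 0.468 CPM without doxycycline. Pou5f1 was thus lower in induced clone 3, and changes of the 10 genes are given by clone where a result turns on them. All 4 factor genes were called in the induction average over both B12 states, Pou5f1, Sox2 and Myc higher and Klf4 lower. When counts were summed over B12 within each clone and state, 1 of the 4 was called, Pou5f1. Klf4 averaged 135 ± 10.1 CPM in MEF, 120 ± 1.40 CPM in MEF+B12, 121 ± 1.97 CPM in OSKM and 114 ± 5.57 CPM in OSKM+B12 (SD, n = 3). The counts do not separate transgene from endogenous gene. The OSKM library of clone 1 was known from earlier work on these counts to stand apart in pseudogenes, and Cdh2 and Prrx1 below were also called without it. The library titles of clone 1 carry a later year than those of clones 2 and 3, so that year and embryo cannot be told apart for clone 1.

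Every one of the genes was expressed in every library. Vim, an intermediate filament protein of mesenchymal cells, was the most abundant per length at 412.5 ± 18.4 RPKM (mean ± SD over 12 libraries). Thy1, a surface glycoprotein of fibroblasts that is also made by T lymphocytes and neurons, followed at 106 ± 18.8 RPKM, and its range overlapped that of Twist1, a basic helix-loop-helix factor of head and limb mesenchyme, at 75.3 ± 4.64 RPKM. Prrx1, a paired-related homeobox factor of limb bud and facial mesenchyme, lay below these at 33.1 ± 2.95 RPKM and above Snai1, a zinc finger repressor of epithelial genes, at 25.1 ± 1.93 RPKM. The ranges of Twist2, a relative of Twist1 found in dermis, and of Snai2, the second Snail factor, overlapped, at 17.6 ± 1.89 and 14.6 ± 2.12 RPKM. So did those of Zeb1, a zinc finger and homeobox repressor, at 9.94 ± 0.916 RPKM and Cdh2, which encodes N-cadherin, at 7.80 ± 2.13 RPKM. Zeb2, the second Zeb factor, was lowest at 3.80 ± 0.300 RPKM, below every value of the other genes. For Thy1, 6 T lymphocyte markers summed to 1.04 to 1.81 CPM per library. Of these Cd3e and Cd3g, parts of the T cell receptor complex, had 0 counts in all 12 libraries and Cd3d at most 1, while Lck had 38 to 74, Trac 13 to 51 and Cd2 1 to 16 counts. Their part in the level of Thy1 was not tested.

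Within the set, levels moved little. The highest of the 12 libraries was 1.20 times the lowest for Vim, 1.21 times for Twist1, 1.27 times for Snai1 and 2.12 times for Cdh2, the widest of the 10, as the plot of CPM by library shows. The summed level of the 10 genes was 3092 to 3252 CPM in MEF, 2964 to 3140 CPM in MEF+B12, 3175 to 3375 CPM in OSKM and 2898 to 3084 CPM in OSKM+B12. In RNA from whole cultures, fewer cells that make a transcript and less of it per cell cannot be told apart.

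**Figure D1:**
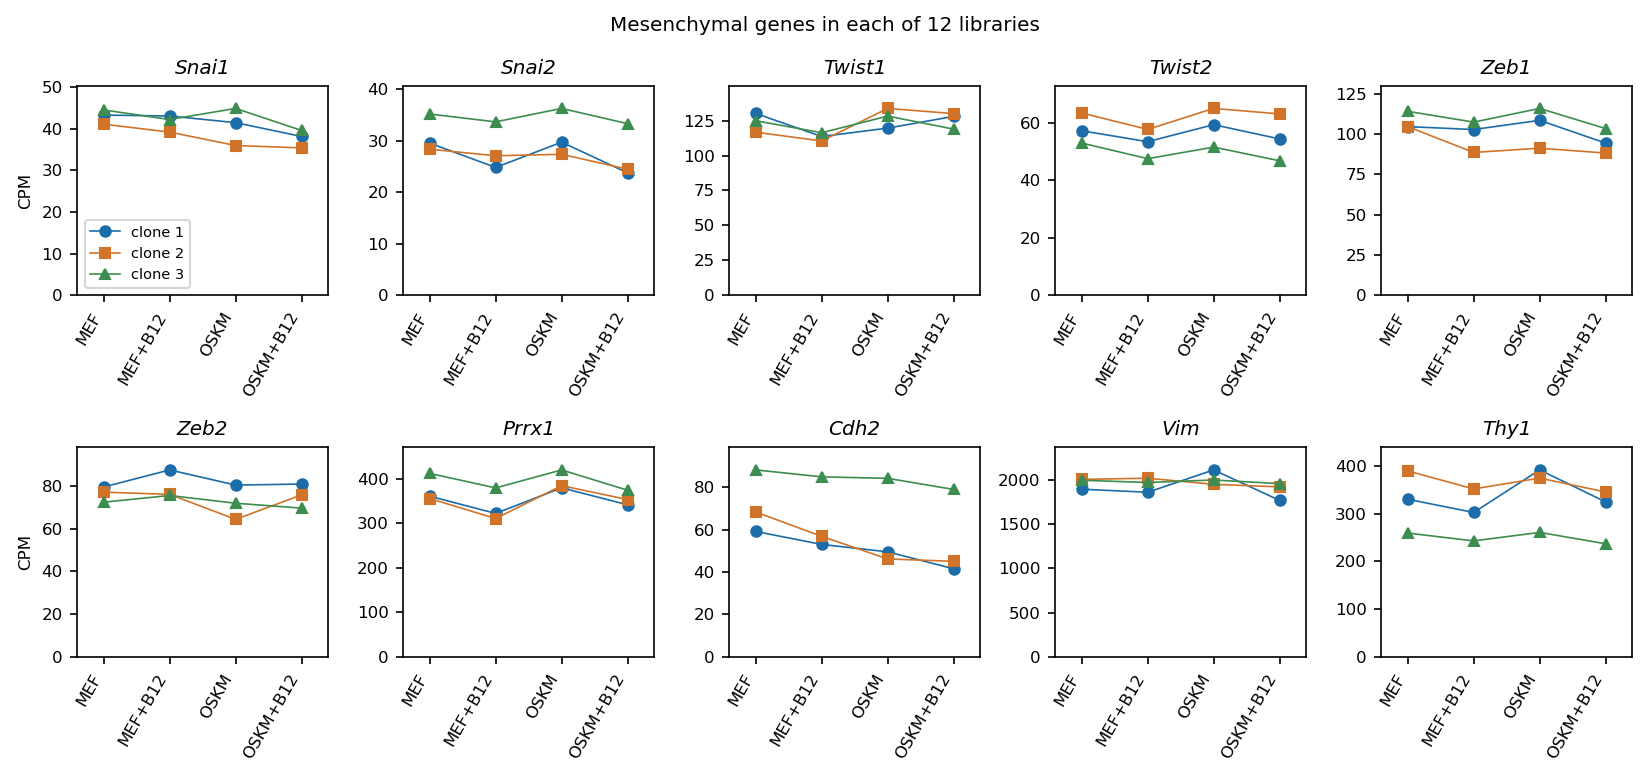
CPM of each of the 10 genes (vertical axis from 0) in the 4 groups (horizontal axis), with 1 point per library and 1 line per clone. Clone 3 (triangles) lies above the other clones for Snai2 and Cdh2 and below them for Thy1 and Twist2 in every group, while Vim and Twist1 lines lie together.

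Induction was compared first, to ask whether mesenchymal genes had fallen at 72 h. Without B12, 0 of the 10 genes passed an adjusted p of 0.05 in OSKM against MEF, where 0.073% of all tested genes did, by the quasi-likelihood test of edgeR with Benjamini-Hochberg adjustment over all genes. In that comparison 1 of the 10 had an unadjusted p under 0.05, against 19% of all genes, and DESeq2 called 1, Cdh2, against 2.57% of all genes. With B12, again 0 passed in OSKM+B12 against MEF+B12, where the background was 0.104%, while 3 had an unadjusted p under 0.05 against 14.9% of all genes. There DESeq2 called 0, against 2.19% of all genes. The average over both B12 states was also fitted. In it 1 of the 10 genes was called, Cdh2, against 9.73% of all genes in either direction and 5.26% lower, so the share of members called was close to the background. The median log2 fold change of the 10 genes was -0.02 in this average, against -0.0028 over all genes, and 6 were below zero.

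Cdh2, through which mesenchymal, neural and muscle cells adhere, was the member that fell. Its level was 59.1, 68.3 and 88.1 CPM in MEF and 49.5, 46.1 and 84.1 CPM in OSKM for clones 1, 2 and 3. With B12 it was 53.0, 56.8 and 84.8 CPM in uninduced and 41.5, 45.0 and 78.9 CPM in induced cells. Groups overlapped because clone 3 was high throughout, but within each clone the induced library was the lower, in 6 of 6 pairs, as in 8.26% of all tested genes. The log2 differences were -0.26, -0.57 and -0.07 for clones 1, 2 and 3 without B12 and -0.35, -0.34 and -0.10 with B12. The fitted log2 fold change was -0.30 ± 0.08 (SE, adjusted p = 0.163) without and -0.26 ± 0.08 (adjusted p = 0.196) with B12, and -0.28 ± 0.06 (adjusted p = 0.0241) in the average. The 6 pairs come from 3 embryos. When the counts were summed over B12 within each clone and state, an alternative chosen after seeing the data, the change was -0.28 (adjusted p = 0.224). In that fit 5 of 19968 genes passed in all.

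The result was also computed with each clone left out. Without clone 3, where 6.87% and 5.22% of all genes passed without and with B12, Cdh2 also passed in each comparison, at -0.41 without B12 (adjusted p = 0.0213) and -0.35 with B12 (adjusted p = 0.0429). Without clone 1 or clone 2 the averaged change was -0.27 and -0.19, with adjusted p-values of 0.262 and 0.426, in fits where 10 and 3 genes passed in all, against 1865 with every clone. The mean change was -0.30 in clone 1, -0.45 in clone 2 and -0.09 in clone 3, and the test of a difference in response between clones gave an unadjusted p of 0.0118 and an edgeR adjusted p of 0.177. For that test 0 of the 10 genes passed, against 2.15% of all genes.

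The 7 transcription factors did not pass the test with induction. Snai1 had 43.2, 41.0 and 44.5 CPM in MEF and 41.4, 35.9 and 44.8 CPM in OSKM, and with B12 43.0, 39.1 and 42.2 CPM in uninduced and 38.1, 35.4 and 39.5 CPM in induced cells. It was lower in the induced library in 5 of 6 pairs, the exception being clone 3 without B12. Its averaged log2 fold change of -0.11 ± 0.03 had an adjusted p of 0.0706. For Snai2 the averaged change was -0.04 ± 0.04, and the direction turned when library totals replaced the TMM scaling.

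Values of the Twist genes and Prrx1 lay on the other side of zero. Twist1 had 130.1, 117 and 125 CPM in MEF and 119.6, 134 and 128 CPM in OSKM, and with B12 114, 110.4 and 116 CPM in uninduced and 128, 130.0 and 119 CPM in induced cells. Without B12 the groups overlapped, and with B12 the 3 induced libraries lay above the 3 uninduced ones. How many of all tested genes were separated in this way was not computed. Its averaged log2 fold change was 0.09 ± 0.04 (adjusted p = 0.192), and that of Prrx1 was 0.08 ± 0.03 (adjusted p = 0.180). Twist2, between 46.7 and 64.9 CPM over all libraries, had an averaged change of 0.03 ± 0.03. Of these differences none passed.

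The Zeb factors had averaged log2 fold changes of -0.05 ± 0.04 for Zeb1 and -0.08 ± 0.04 for Zeb2, with adjusted p-values of 0.415 and 0.236. Zeb1 lay between 88.3 and 116 CPM and Zeb2 between 64.3 and 87.4 CPM over all libraries. The change of Zeb1 in clones 1, 2 and 3 was 0.05, -0.20 and 0.02 without B12, so that clone 2 differed from the others in direction. Vim was 1897, 2008 and 1998 CPM in MEF and 2115, 1952 and 2001 CPM in OSKM. Its averaged log2 fold change was -0.01 ± 0.04 (adjusted p = 0.955). Thy1 was 330.2, 389.6 and 259 CPM in MEF and 392, 375 and 261 CPM in OSKM, higher in clone 1, lower in clone 2 and alike in clone 3, with an averaged change of 0.04 ± 0.04 (adjusted p = 0.603).

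**Figure D2:**
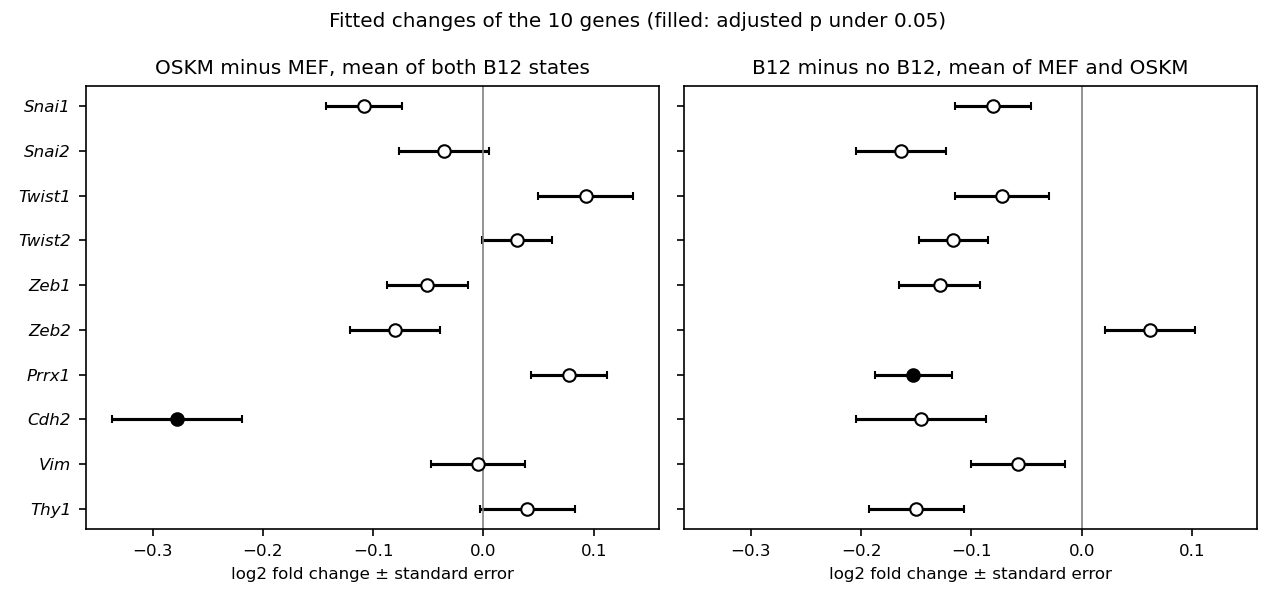
Log2 fold changes with standard errors (horizontal axis) of the 10 genes for induction (left, averaged over both B12 states) and for B12 (right, averaged over uninduced and induced cells), from a fit over 12 libraries. Filled points have an adjusted p under 0.05, Cdh2 at -0.28 on the left and Prrx1 at -0.15 on the right, and 9 of the 10 points on the right lie below zero.

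The epithelial genes that Snail and Zeb factors are known to repress were compared beside them. The list calls below with induction rest on the average, which counts 6 pairs from 3 embryos. In the edgeR fit on sums per clone and state, 0 genes of these lists were called for induction. Of 18 such genes 13 were tested, and in the induction average 6 were higher and 1 lower, with a median log2 fold change of 1.00 over the 13. Krt8, a keratin of simple epithelia, had the smallest adjusted p, 0.0160, and a change of 2.58 ± 0.42. Its log2 differences in clones 1, 2 and 3 were 2.82, 3.45 and -0.13 without B12 and 2.92, 3.22 and 0.26 with B12, and the response differed between clones (adjusted p = 0.0337). Cdh1, which encodes E-cadherin, changed by 1.95 ± 0.33 (adjusted p = 0.0172), and Itgb4, an integrin of hemidesmosomes, had 2.38 ± 0.43 with 0.0183. The gene that fell was Cdh3, which encodes P-cadherin, by 0.29 ± 0.08 on the log2 scale (adjusted p = 0.0474). Its log2 differences in clones 1, 2 and 3 were -0.42, -0.48 and 0.06 without and -0.53, -0.41 and 0.05 with B12. It was also the list's most abundant gene per length at 14.3 RPKM.

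Cdh1 stayed near the floor of detection. It had 12, 7 and 6 counts in MEF of clones 1, 2 and 3 and 13, 2 and 3 counts in MEF+B12. Induced cells of clones 1, 2 and 3 had 38, 35 and 17 counts without B12, and 40, 38 and 6 counts with it. The 4 highest were the induced ones of clones 1 and 2. Per length, Cdh2 stood 40.0 to 49.8 times above Cdh1 in those 4 libraries, and 161, 349.7 and 528 times above it in MEF of clones 1, 2 and 3. In clone 3 the ratio was 219 in OSKM and 485 in OSKM+B12. In MEF+B12 it was 159.9 in clone 1, and the 2 and 3 counts of clones 2 and 3 gave 935 and 1090, for which the exact Poisson 95% interval of the Cdh1 count allows 259 to 7719 and 373 to 5286. The transcript of N-cadherin exceeded that of E-cadherin in every library, and these ratios carry the counting error of few Cdh1 reads. Genes that mark other cells were also counted. Of 10 endothelial markers 6 were tested and 3 rose with induction (Tek, Esam and Cdh5), the list summing to 45.7 to 50.3 CPM in MEF and 57.3 to 147.8 CPM in OSKM. Most of this sum was Tek, at 35.5 to 42.3 CPM in MEF and 46.1 to 138.7 CPM in OSKM, while Esam reached at most 0.426 CPM. Kdr, Egfl7 and Vwf averaged 3.91, 2.00 and 1.61 CPM in MEF and 3.89, 1.77 and 1.48 CPM in OSKM. Pecam1, Tie1, Emcn and Cldn5 reached at most 0.279 CPM in any library. Of 10 neural and glial markers 8 were tested, of which 1 rose (Stmn2) and 2 fell (Tubb3 and Gfap), and of 10 muscle markers 4 were tested and 0 passed by edgeR, with 2 at an unadjusted p under 0.05. The part of these markers in the values of Cdh2, which nerve and muscle also express, was not tested.

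**Figure D3:**
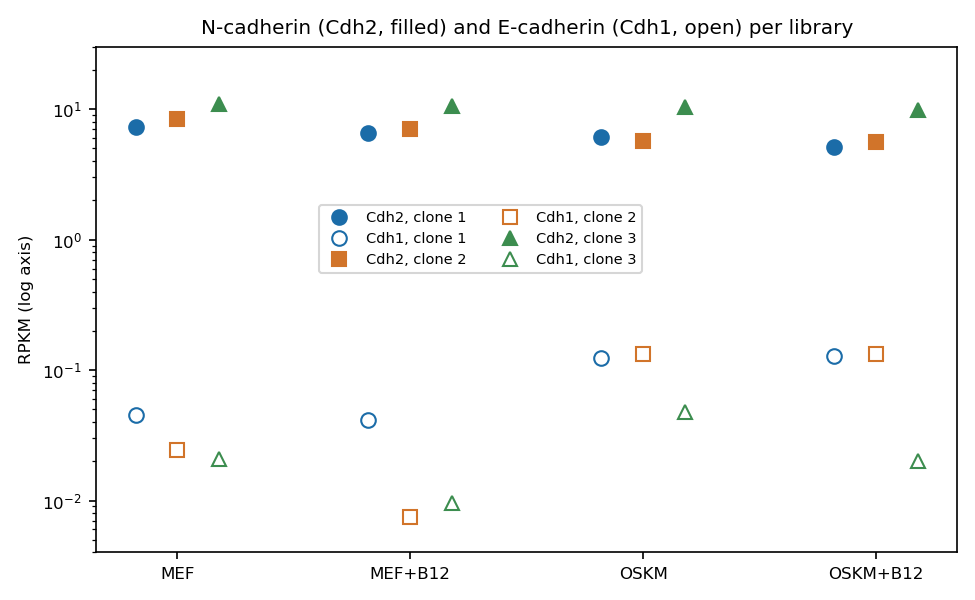
RPKM of Cdh2 (filled) and Cdh1 (open) on a log axis in each library, by group and clone. Cdh2 lies above Cdh1 in all 12 libraries, and Cdh1 is highest in the induced libraries of clones 1 and 2, at 0.123 to 0.134 RPKM.

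Other genes of the pathway gave counts in both directions with induction. Among inhibitors and antagonists of the factors, 14 of 24 genes were tested and 4 were higher and 0 lower. These were Elf3 and Ehf, epithelial transcription factors, at 3.14 ± 0.51 and 2.09 ± 0.43 on the log2 scale, and Id1 and Id2, which block basic helix-loop-helix factors, at 0.93 ± 0.20 and 0.18 ± 0.05. Elf3 reached at most 0.329 CPM in any library, and its log2 differences in clone 3 were -0.14 without and 1.00 with B12, against 1.95 to 3.51 in clones 1 and 2. Ehf reached at most 0.306 CPM, and in clone 3 without B12 it went from 0.063 to 0.077 CPM. Without B12, Id1 went from 9.795 to 9.825 CPM in clone 3, against 10.2 to 20.1 CPM in clone 1 and 5.90 to 16.0 CPM in clone 2. The hairpins of the 5 miR-200 family genes in the list, known repressors of Zeb1 and Zeb2, had 0 counts, and poly(A) libraries capture few miRNA precursors. Of 16 cofactors, Ajuba, a LIM protein that binds Snail, fell by 0.13 ± 0.03 (adjusted p = 0.0398), and the other 15 did not pass.

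Among 30 other mesenchymal transcription factors 29 were tested, of which 4 rose and 2 fell with induction. Runx1, a factor of blood and fibroblasts, fell by 0.36 ± 0.06 on the log2 scale (adjusted p = 0.0130). Meox2, a homeobox factor of mesoderm, rose by 0.63 ± 0.10 and Tbx15, a T-box factor of limb and skin mesenchyme, by 0.15 ± 0.04, with adjusted p-values of 0.0172 and 0.0324. Of 20 other surface and cytoskeletal genes, 2 rose and 4 fell. Cd34 rose by 0.70 ± 0.11, while the platelet-derived growth factor receptors Pdgfrb and Pdgfra each fell by 0.26, with standard errors of 0.05 and 0.06. Of 24 upstream inducers 23 were tested, 1 rose and 3 fell, among them Tgfb1, a main inducer of Snail and Zeb factors, by 0.28 ± 0.06.

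B12 was compared next. In OSKM+B12 against OSKM 0 of the 10 genes passed, where 1.06% of all genes did, and 6 of 10 had an unadjusted p under 0.05, against 9.82% of all genes. In MEF+B12 against MEF 0 passed against a background of 1.38%, and 3 had an unadjusted p under 0.05 against 10.3% of all genes. DESeq2 called 0 in each, against 2.01% of all genes in induced and 2.4% in uninduced cells. Averaged over uninduced and induced cells, 1 of the 10 genes was called, Prrx1, against 3.84% of all genes in either direction and 0.381% lower. The median log2 fold change of the 10 genes was -0.12 in this average, against -0.01 over all genes.

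Prrx1 was 361, 356 and 412 CPM in MEF and 322, 311 and 379.5 CPM in MEF+B12 for clones 1, 2 and 3. In induced cells it was 379.7, 385 and 420.0 CPM without and 342, 353 and 374 CPM with B12. Uninduced groups overlapped through clone 3, and the 3 induced libraries with B12 all lay below the 3 without. The share of all tested genes separated in this way was not computed, so this is a description. The library with B12 was the lower in 6 of 6 pairs, by log2 differences of -0.20 to -0.12, the narrowest range among the genes that were lower in all pairs. The averaged log2 fold change was -0.15 ± 0.03 (adjusted p = 0.0336), and the 6 pairs behind it come from 3 embryos. Alone, the change was -0.16 ± 0.05 in uninduced (adjusted p = 0.208) and -0.15 ± 0.05 in induced cells (adjusted p = 0.307). A fit on summed counts was made for induction only, not for B12. Scaling by library totals gave -0.13 (adjusted p = 0.0939), and leaving out clone 1, 2 or 3 gave -0.15, -0.15 and -0.14 with adjusted p-values of 0.212, 0.328 and 0.176, where 2.75%, 0.176% and 1.65% of all genes passed.

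The other members were lower with B12 in most pairs without passing the test. Of the 10 genes, 7 were lower in 6 of 6 pairs (Snai1, Snai2, Twist2, Zeb1, Prrx1, Cdh2 and Thy1), against 7.64% of all tested genes. The pairs share embryos and are not independent, and the set was chosen with earlier results on fibroblast genes in these libraries known, so this count is a description. Twist1 and Vim were lower in 5 of 6 pairs. Snai2 had 29.6, 28.4 and 35.2 CPM in MEF, 24.8, 27.1 and 33.7 CPM in MEF+B12, 29.7, 27.4 and 36.3 CPM in OSKM and 23.8, 24.5 and 33.4 CPM in OSKM+B12. Its groups overlapped, clone 3 lying highest in each, and its averaged change was -0.16 ± 0.04 (adjusted p = 0.0521).

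Twist2 followed with -0.12 ± 0.03 (adjusted p = 0.0765), Zeb1 with -0.13 ± 0.04 and 0.0939, and Thy1 with -0.15 ± 0.04 and 0.0979. Thy1 was 302.5, 352 and 243 CPM in MEF+B12 and 325, 345 and 237 CPM in OSKM+B12, below the library of the same clone without B12 in each case. Cdh2 had -0.15 ± 0.06 (adjusted p = 0.261), Snai1 -0.08 ± 0.03 with 0.292, Twist1 -0.07 ± 0.04 with 0.462 and Vim -0.06 ± 0.04 with 0.563. With a block for each clone and state, chosen after seeing the data, 4 genes passed, Prrx1, Snai2, Thy1 and Twist2, the largest adjusted p among them being 0.0475, and 5.64% of all genes passed.

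Zeb2 was the exception in direction. It had 79.5, 77.0 and 72.3 CPM in MEF, 87.4, 76.0 and 75.5 CPM in MEF+B12, 80.3, 64.3 and 71.9 CPM in OSKM and 80.8, 75.8 and 69.6 CPM in OSKM+B12. It was higher with B12 in 4 of 6 pairs and its groups overlapped. The averaged change was 0.06 ± 0.04 (adjusted p = 0.520).

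Markers of another cell type moved with B12. Of 14 macrophage markers 13 were tested, and 11 were higher and 0 lower in the B12 average, against 3.84% of all genes in either direction. Over the 13 the median log2 fold change was 0.56, with 12 above zero and 1 below. The 1 below was Cx3cr1, which did not pass. It averaged 5.05 CPM in MEF, 3.64 CPM in MEF+B12, 3.47 CPM in OSKM and 2.61 CPM in OSKM+B12. Mrc1, the mannose receptor, rose by 0.86 ± 0.08, Fcgr1, an antibody receptor, by 0.95 ± 0.10 and Csf1r, the receptor for the growth factor that sustains macrophages, by 0.71 ± 0.08, with adjusted p-values of 0.000206, 0.000440 and 0.000773. The summed macrophage level was 1296 to 2492 CPM in MEF, 1963 to 3304 CPM in MEF+B12, 1328 to 2303 CPM in OSKM and 2039 to 2679 CPM in OSKM+B12, and 0 of the 14 markers were at 0 in every library. Macrophages also express Zeb2, and the library with the highest Zeb2, MEF+B12 of clone 1, was the one with the highest macrophage sum. Mrc1 was higher with B12 in every clone and state, and Zeb2 was higher in 4 of 6 pairs. In uninduced cells Zeb2 went from 79.5 to 87.4 CPM in clone 1 and from 72.3 to 75.5 CPM in clone 3. Mrc1 went there from 284 to 487 CPM and from 122.5 to 251 CPM. In induced cells Zeb2 went from 80.3 to 80.8 CPM in clone 1 and from 64.3 to 75.8 CPM in clone 2. Mrc1 went there from 314 to 450 CPM and from 143 to 327 CPM. In the remaining pairs Zeb2 was lower with B12. In clone 2 Mrc1 went from 185 CPM in MEF to 302 CPM in MEF+B12, and Zeb2 from 77.0 to 76.0 CPM. In clone 3 Mrc1 went from 121 CPM in OSKM to 237 CPM in OSKM+B12, and Zeb2 from 71.9 to 69.6 CPM. The part of these markers in the values of Zeb2 and of the genes that were lower with B12 was not tested.

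The lists of related genes gave the following with B12. Of the 29 other mesenchymal transcription factors 26 were below zero, with a median of -0.12, and 1 passed, Ebf3, a factor of the early B cell factor family, which fell by 0.19 ± 0.04 (adjusted p = 0.0373). Of the 20 surface and cytoskeletal genes 18 were below zero and 0 passed, with 6 at an unadjusted p under 0.05. Of the 13 epithelial genes 0 passed, with a median of -0.05 and 1 at an unadjusted p under 0.05. Upstream of the factors Tgfb1 rose by 0.36 ± 0.06 (adjusted p = 0.00397) and Tgfb2 fell by 0.21 ± 0.04 with 0.00623. Of 16 cofactors and 14 inhibitors 0 passed, with 5 and 3 at an unadjusted p under 0.05. These counts are by edgeR.

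The B12 difference in induced cells was compared with that in uninduced cells through the interaction. It passed for 0 of the 10 genes and for 0% of all genes by edgeR, with 273 of 19174 at an unadjusted p under 0.05. The log2 interaction of Twist1 was 0.11 ± 0.09, that of Vim was -0.09 ± 0.08, and the other 8 lay between -0.08 and 0.03.

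More of the genes differed between embryos than with either treatment. Averaged over the 4 groups, 8 of the 10 genes differed between clones at an adjusted p under 0.05, against 37.8% of all genes, and the exceptions were Twist1 and Vim. Cdh2 was 50.8, 54.0 and 84.0 CPM on average in clones 1, 2 and 3, so that clone 3 stood 0.74 above clone 1 and 0.66 above clone 2 on the log2 scale (adjusted p = 4.48e-05). Its 4 libraries lay above all 8 libraries of the other clones, and the share of all genes that did so was not computed. Snai2 was also highest in clone 3, by 0.37 over either of the others (adjusted p = 0.000271).

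Thy1 was lowest in clone 3. It had 337, 365 and 249.97 CPM on average, clone 3 standing 0.43 below clone 1 and 0.55 below clone 2 on the log2 scale (adjusted p = 6.87e-05). Its libraries in clone 3 did not overlap those of the other clones, again without a computed share of all genes. Twist2 was also lowest in clone 3, at 49.6 CPM against 56.0 and 62.2 CPM in clones 1 and 2 (adjusted p = 0.000311). Prrx1 and Zeb1 were highest in clone 3, at 396 and 110.3 CPM on average, with adjusted p-values of 0.00872 and 0.00492. Snai1 was lowest in clone 2 at 37.9 CPM and Zeb2 highest in clone 1 at 82.0 CPM, with 0.0175 and 0.0238. Clone 3 was also the clone with the least Pou5f1 after induction, and its part in these levels was not tested. Without clone 3, 2 of the 10 genes differed between the remaining clones, Twist2 and Zeb2, against 28.2% of all genes. Without clone 1 it was 5 (Cdh2, Snai2, Thy1, Twist2 and Zeb1) against 6.88%, and without clone 2 it was 6 against 27.3%.

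**Figure D4:**
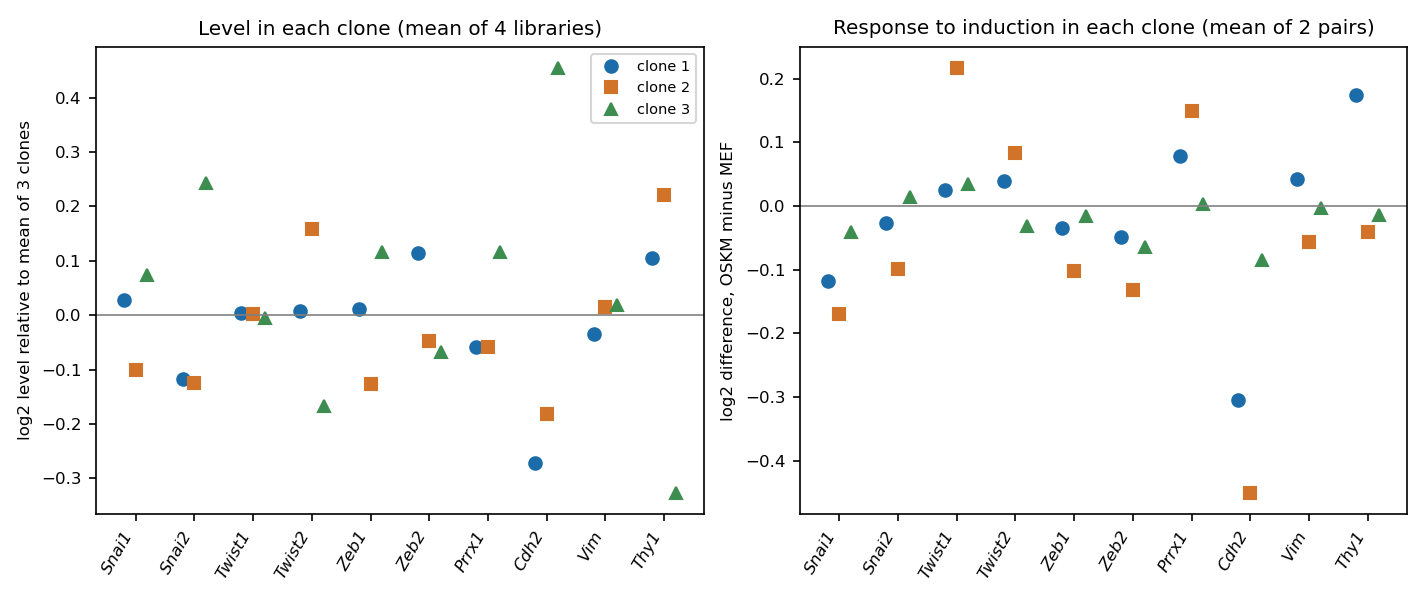
Left, log2 mean CPM of each clone over its 4 libraries, relative to the mean of the 3 clones, for the 10 genes. Right, log2 difference of induced minus uninduced cells in each clone, the mean of 2 pairs. On the left, clone 3 is the highest in Cdh2 and Snai2 and the lowest in Twist2 and Thy1. On the right, Cdh2 is at -0.30, -0.45 and -0.09 in clones 1, 2 and 3.

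Correlations across the 12 libraries followed the clones and are descriptions, since libraries share embryos and scaling. Snai2 and Cdh2 had a Pearson r of 0.90, Twist2 and Thy1 of 0.92, and Cdh2 and Thy1 of -0.74. After the clone means were removed, these were 0.61, 0.74 and 0.20. Twist2 and Prrx1 went from -0.22 over all libraries to 0.94 within clones, Snai1 and Cdh2 from 0.69 to 0.90, and Zeb2 was negatively related to Twist1 within clones, at -0.66. Over 12 libraries and 11927 genes, the genes whose levels were most like those of Cdh2 were Nsg1, Camk4 and Tmeff1, at r = 0.99, 0.98 and 0.98. Those most like Thy1 were Mgst1, Peli2 and Epb41l4b, at 0.97, 0.94 and 0.93, and Mgst1 was also second for Twist2, at 0.93. For Snai2 the first was Bmp4 at 0.96, for Snai1 Sparcl1 at 0.95, for Zeb1 Robo2 at 0.95, for Prrx1 Grb10 at 0.94, for Zeb2 Secisbp2l at 0.94, for Twist1 Hnrnpr at 0.93 and for Vim Kcmf1 at 0.95.

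By position (GENCODE M21, GRCm38), Snai1 (ENSMUSG00000042821) lies on chromosome 2 from 167538195 to 167542814, Vim on chromosome 2 from 13573927 to 13582826 and Zeb2 on chromosome 2 from 44983632 to 45117395. Prrx1 (ENSMUSG00000026586) and Twist2 lie on chromosome 1, Twist1 on chromosome 12, Snai2 on chromosome 16, Thy1 on chromosome 9, and Cdh2 (ENSMUSG00000024304) and Zeb1 on chromosome 18. All 10 are protein-coding. At most 2.92% of the 31-base words of any of them (Snai2) occur in transcripts of other genes. Twist2, Zeb1 and Zeb2 overlap exons of genes on the opposite strand by 1477, 198 and 653 bases (Gm29100, Gm10125 and Zeb2os), and the counting was strand-specific.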

How the data were processed

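Poly(A) RNA of 12 libraries was made into strand-specific paired-end libraries, which the authors aligned with STAR (2.5.2 per the submitters' processing notes) to mm10 (GRCm38) and counted with featureCounts (reverse stranded, Ensembl 97 genes). The deposited values are raw counts, with the flow cells of each library added. No molecular identifiers were used. The Poisson intervals of the Cdh1 counts cover counting error only, while the SE and SD also hold differences between libraries. The labels give doxycycline in µg/ml, while the methods give mg/ml.

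From the counts, edgeR 4.0.16 (R 4.3.3) was run with TMM, filterByExpr, and clone and group as terms. Its quasi-likelihood F test was adjusted by Benjamini-Hochberg over 19174 genes, with a threshold of 0.05. Tests between clones used clone terms, and for the response their product with state. The clone entered as a block, since the 4 groups were grown from the same 3 embryos. Same-clone libraries deviated together, with correlations of 0.270 to 0.687 over 18 pairs, against -0.51 to 0.17 between clones. ± is SE for log2 fold changes and SD otherwise. Log2 CPM used a prior count of 2, and RPKM the exon length of GENCODE M21, which matched 55480 of 55573 identifiers.

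Alternatives were DESeq2 1.42.0, other scalings and filters, no clone block, only the libraries compared, and leaving out each clone or the OSKM library of clone 1. All 10 genes are named. From other lists, up to 3 genes per comparison with the smallest adjusted p were named, and 1 or 2 abundant ones. Id2 and genes at 0 counts fell outside this rule and were named after their values were seen. Genes most like a member were ranked by Pearson r. The members and lists were chosen with earlier results of these data known. Protein sequences were not used here.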

Additional observations from a re-analysis of the deposited data

Results flagged for a closer look

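The response to induction differed between clones for genes of the compared lists, by the edgeR F test of the product of clone and state. None of the 10 mesenchymal genes was among them. In the epithelial list the adjusted p was 0.000269 for Itgb4, 0.00197 for Krt19 and 0.0106 for Cdh3. Itgb4 went from 1.55 to 2.70 CPM in the uninduced libraries to 15.2 to 20.3 CPM after induction in clones 1 and 2, against 3.50 and 3.26 CPM in clone 3. Among mesenchymal factors and surface genes it was 0.00504 for Meox2, 0.0200 for Osr2, 0.00202 for Cd34 and 0.0469 for Nt5e. Cd34, a surface gene of stromal and blood progenitor cells, reached 491 to 523 CPM after induction in clones 1 and 2, against 286 and 276 CPM in clone 3. Id1 had an adjusted p of 0.00212.

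Of the reprogramming factors, Myc had an adjusted p of 0.000653 and Sox2 of 0.0156. Among markers of other cell types it was 0.000269 for Tek and 0.0107 for Cdh5 (endothelium), 0.00504 for Cx3cr1 and 0.0295 for Adgre1 (macrophages), and 0.000729 for Stmn2 (neurons).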

How the results depend on the processing

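Counts below are of the 10 genes called. In OSKM against MEF the count was 1 (Cdh2) with DESeq2 and with no filter, where 2.57% and 2.06% of all genes passed, and in MEF+B12 against MEF 1 (Prrx1) when only the libraries compared were fitted (4.58% of all genes). For induction averaged over B12 it was 0 with no replicate block and 0 when counts were summed over B12, in fits where 0 and 5 genes passed in all. For B12 averaged over state it was 3 with DESeq2 (4.9% of all genes), 2 with DESeq2 size factors (3.84%), 0 with library totals (4.59%), 2 with at least 10 counts in every library (4.52%), 0 with no replicate block (0.469%) and 4 with the block of clone and state (5.64%). The response between clones gave 1 (Cdh2) with no filter (3.8% of all genes). With no replicate block, Cdh2 had -0.25 (adjusted p = 0.695) for induction and Prrx1 -0.15 (adjusted p = 0.632) for B12. Leaving out a clone, or the OSKM library of clone 1, gave ranges of 0 to 1 for each induction comparison and their average, for the B12 average and for the response between clones, and of 2 to 7 for the level between clones. The shares of all genes in these fits were 0.00518% to 6.87% and 0.00518% to 5.22% for induction without and with B12. They were 0.0155% to 15.9% for the induction average and 0.176% to 4.03% for the B12 average. For the response they were 0% to 4.3%, with 3.79% without clone 1, where Cdh2 was called. For the level they were 6.88% to 35.9%, the 7 genes going with 35.9%. The B12 average fell to 0 without any 1 clone.

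Of 860 values of single genes under alternatives, 802 kept direction and call, 23 turned in direction, 14 came to pass and 21 ceased to pass. None that turned was called. In OSKM against MEF, Snai2 was 0 with DESeq2, DESeq2 size factors or no filter and Zeb1 0.01 with library totals. With library totals Vim was 0.02 in MEF+B12 against MEF, and in the induction average Snai2 was 0.01 and Vim 0.04. Leaving out a clone or that single library gave, in OSKM against MEF, -0.04 to 0.03 for Snai2, -0.03 to 0.12 for Twist1, -0.08 to 0.05 for Zeb1, -0.13 to 0.01 for Zeb2, -0.03 to 0.09 for Vim and -0.02 to 0.14 for Thy1. It gave -0.04 to 0.03 for Thy1 in OSKM+B12 against MEF+B12, -0.08 to 0.04 for Twist1 and -0.02 to 0.13 for Zeb2 in OSKM+B12 against OSKM, and -0.02 to 0.01 for Vim in MEF+B12 against MEF. In the induction average it gave -0.04 to 0.02 for Vim and -0.03 to 0.08 for Thy1. The cause of these shifts was not tested. The 10 genes had at least 1523 counts in each library, and Cdh1 as few as 2.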
